A study of Rattus norvegicus with 10 samples.

Results

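The natriuretic peptide genes were described here across 10 Affymetrix arrays of cultured neonatal rat ventricular cardiomyocytes. The set was chosen by name and holds 6 genes, the peptides Nppa and Nppb, the processing enzyme Corin, and the receptors Npr1, Npr2 and Npr3. Of these 6 genes, 5 had a probe set by the platform annotation, with 1 probe set each, so the members are 5 probe sets of 31042. They are 1367564_at (Nppa), 1367616_at (Nppb), 1368201_at (Npr1), 1387099_at (Npr2) and 1369273_a_at (Npr3). Corin was not analysed here, because no probe set carried its symbol. All 5 probe sets passed the filter on low values.

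The study compared 3 conditions in primary ventricular cultures of newborn Lewis rats aged 0 to 3 days. The first received electric pulses together with blebbistatin, an inhibitor of myosin II that stops contraction, at 10 µmol/L (3 arrays, from culture series 2, 3 and 4). The second received the pulses alone, at 1 Hz and 2 V/cm over 3 days (4 arrays, from culture series 1 to 4). The third was left unpulsed and untreated (3 arrays, from culture series 1, 2 and 3). A culture series is the set of arrays with the same date in their titles, and its number is used here in place of that date. It was taken as a separate round of cell isolation and culture, which the titles do not state. Every array held RNA mixed in equal parts from duplicate experiments, so the p-values of treatment differences measure how far these vary from one culture series to another. Series 2 and 3 held all 3 conditions, series 1 lacked blebbistatin, and series 4 lacked the unpulsed culture. The cultures are primary isolates that can hold cells other than cardiomyocytes, and in such RNA fewer cells of a type and less RNA per cell cannot be told apart.

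Nppa encodes atrial natriuretic peptide and Nppb encodes brain natriuretic peptide, hormones that heart muscle cells release when stretched or loaded. The ventricle makes much of both before and around birth, and transcript levels of both rise again in hypertrophy, which is why they serve as markers of the fetal gene programme. Corin, a membrane protease, cuts the precursor of atrial natriuretic peptide. Npr1 is the guanylyl cyclase receptor for both cardiac peptides, Npr2 is the related receptor for C-type natriuretic peptide, and Npr3 clears the peptides from the cell surface. Npr1 and Npr2 make cyclic GMP, which acts through protein kinase G and is broken down by phosphodiesterases.

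Nppb and Nppa lie side by side on rat chromosome 5. In the gene order of assembly GRCr8 the run is Miip, Mfn2, Plod1, 2510039O18Rikl, Nppb, Nppa and Clcn6. The bases just before each gene's start are shown because both peptides are textbook targets of the cardiac factors GATA4 and NKX2-5, which are on the list of transcription factors described further on. The sequences are from RefSeq on GRCr8, plus strand, at chr5:163711934-163712183 for Nppa and chr5:163699758-163699954 for Nppb. Capitals mark GATAA (GATA factors), AAGTG (NKX2-5) or CATTCC (TEAD factors) on either strand.
Nppa: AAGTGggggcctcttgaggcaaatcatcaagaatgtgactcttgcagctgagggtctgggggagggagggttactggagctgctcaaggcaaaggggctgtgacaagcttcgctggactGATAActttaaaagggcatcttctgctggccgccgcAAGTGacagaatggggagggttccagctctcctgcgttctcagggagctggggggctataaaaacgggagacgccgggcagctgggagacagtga
Nppb: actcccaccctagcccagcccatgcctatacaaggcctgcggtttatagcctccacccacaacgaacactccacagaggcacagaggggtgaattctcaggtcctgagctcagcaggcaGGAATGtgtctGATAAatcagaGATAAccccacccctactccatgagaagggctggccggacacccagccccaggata

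Both windows hold GATAA, at -131 from the start of Nppa and at -67 and -56 from the start of Nppb. AAGTG stands at -250 and -95 in the Nppa window, and the reverse complement of CATTCC stands at -78 in the Nppb window. These short words are common. Of 33469 rat promoters, 23.5% hold GATAA on either strand in a window of 250 bases, and 19.9% do in 197 bases. AAGTG occurs in 40.6% of the windows of 250 bases, and CATTCC in 9.58% of those of 197 bases. A further 3 motifs were searched on both strands, a loose form of the serum response factor (CArG) box, TGANTCA (AP-1) and GTGTGA (T-box factors). Of them, the loose CArG box matched in the Nppa window at -241, as it does in 65.1% of windows of that length, and it overlaps none of the capitals. The other motif searches found none of these letters in these windows.

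Both peptide genes had high values in every culture, and no treatment changed either of them by the test. Nppa had log2 values of 13.06, 13.56 and 13.04 in the pulsed cultures with blebbistatin (series 2, 3 and 4). The pulsed cultures had 13.46, 13.61, 13.61 and 13.10 (series 1 to 4), and the nonpulsed cultures 13.56, 13.69 and 13.71 (series 1 to 3). The low arrays were both arrays of series 4 and the blebbistatin array of series 2, and the 3 groups overlapped. The group means were 13.22 ± 0.29 with blebbistatin (SD, n = 3), 13.45 ± 0.24 in pulsed cultures (SD, n = 4) and 13.65 ± 0.08 in nonpulsed cultures (SD, n = 3). The highest value on any array was 13.90 to 14.03, so Nppa was measured near the upper end of the scale, and whether differences are compressed there was not tested.

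Nppb had log2 values of 12.60, 12.96 and 12.55 in the pulsed cultures with blebbistatin. It had 12.66, 13.21, 13.11 and 12.77 in the pulsed cultures, and 12.48, 12.94 and 13.11 in the nonpulsed cultures. All 3 groups overlapped again. The arrays of series 3 were among the high ones and those of series 1 among the low ones. Means were 12.70 ± 0.22 with blebbistatin (SD, n = 3), 12.94 ± 0.26 in pulsed cultures (SD, n = 4) and 12.84 ± 0.33 in nonpulsed cultures (SD, n = 3).

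**Figure D1:**
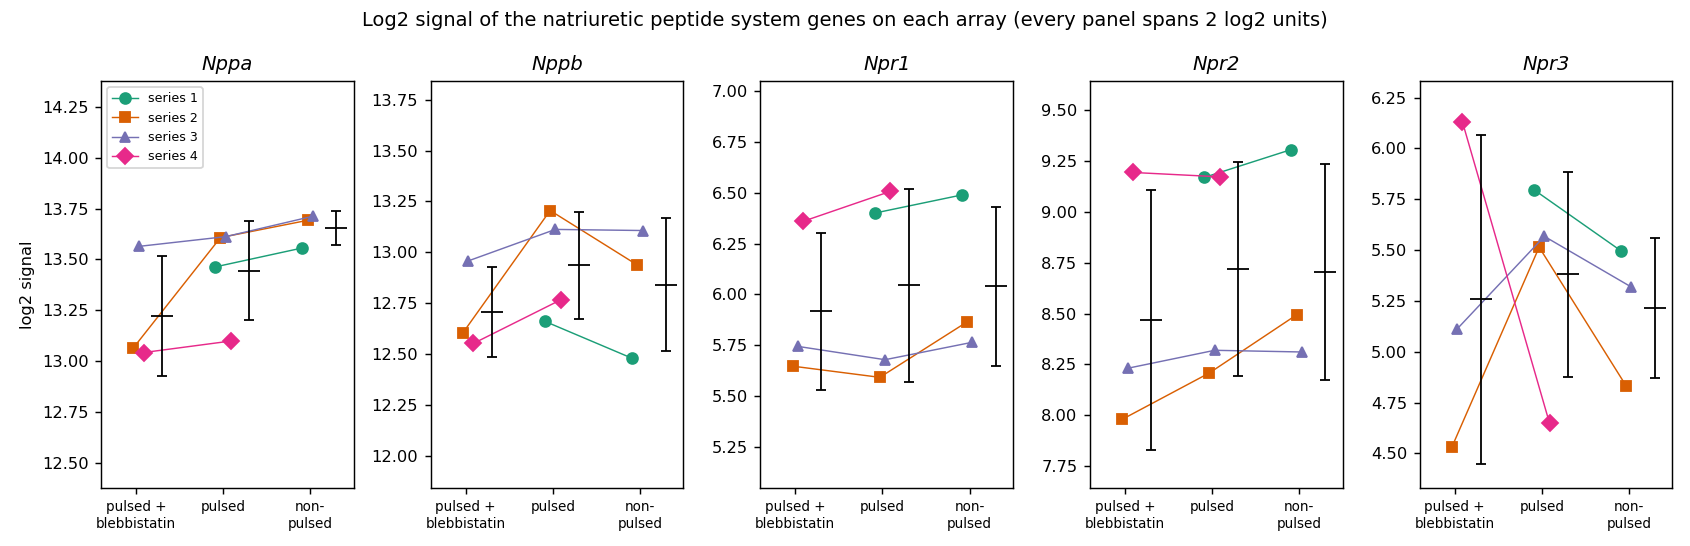
Log2 value of each member (y axis, 1 panel per gene with its own scale) on each of the 10 arrays by condition (x axis), with marker, colour and joining line for the culture series and black bars for the group mean and SD. For Npr1 and Npr2 the arrays of series 1 and 4 lie above those of series 2 and 3 in every condition, while the conditions overlap for all 5 genes.

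Pulsing alone left the level of both peptides within the spread between arrays. The fitted difference of pulsed minus nonpulsed cultures, with culture series held fixed, was -0.12 (SE 0.12, 95% interval -0.41 to 0.17) for Nppa. It was 0.13 (SE 0.11, interval -0.12 to 0.39) for Nppb. Adjusted p-values over all probe sets were 0.782 for Nppa and 0.726 for Nppb (limma, Benjamini-Hochberg). Within series 1, 2 and 3 the difference was -0.09, -0.08 and -0.10 for Nppa and 0.18, 0.27 and 0.01 for Nppb. Nppa was thus lower in each of the 3 series and Nppb higher in each, which 10.0% (lower) and 24.1% (higher) of the 23281 probe sets tested also were. The intervals leave room for an Nppb difference of up to 0.39 and an Nppa difference as low as -0.41. In this comparison 0 probe sets passed the test (0%), and 9.08% had an unadjusted p under 0.05, among them 0 of the 5 members. The arrays of the 2 groups overlapped for every member, and they did not for 6.17% (higher) and 1.16% (lower) of all probe sets. Nonpulsed cultures of series 1 had the lowest mean of the cardiomyocyte marker list (12.38, against 12.83 to 13.11 on the other 9 arrays), and its part in the peptide values was not tested.

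With blebbistatin added to the pulses, both peptides had lower fitted values, and neither passed the test. Nppb differed by -0.33 from pulsed cultures (SE 0.11, 95% interval -0.59 to -0.08, 1.26-fold lower, unadjusted p = 0.0175, adjusted p = 0.336 by limma). Its differences within series 2, 3 and 4 were -0.60, -0.15 and -0.21. Nppa differed by -0.22 (SE 0.12, interval -0.51 to 0.07, adjusted p = 0.533), with -0.54, -0.05 and -0.06 within these series. Each peptide was lower with blebbistatin in 3 of 3 series, as were 15.2% of all probe sets tested. The difference was largest in series 2 for both. Without the blebbistatin array of series 2, the fitted difference was -0.05 for Nppa and -0.22 for Nppb. In all, 3 probe sets passed the test in this comparison (0.0129%), none of them a member, and 11.6% had an unadjusted p under 0.05, among them Nppb. The groups overlapped for every member, and they did not for 6.18% (higher) and 3.67% (lower) of all probe sets.

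Set against nonpulsed cultures, which shared a series with blebbistatin cultures only in series 2 and 3, Nppa was the member with the largest fitted difference. It differed by -0.34 (SE 0.14, 95% interval -0.66 to -0.02, 1.27-fold lower, unadjusted p = 0.0416, adjusted p = 0.206 by limma), with -0.63 and -0.15 within series 2 and 3. Without the blebbistatin array of series 2 this difference was -0.15. Nppb differed by -0.20 (SE 0.12, interval -0.49 to 0.09, adjusted p = 0.367), and by -0.07 without that array. Here 110 probe sets passed the test (0.472%), none of them a member, and 22.4% had an unadjusted p under 0.05, among them Nppa. Both peptides were lower in 2 of 2 series, as were 25.3% of all probe sets. The groups overlapped for every member, and they did not for 17.6% (higher) and 6.90% (lower) of all probe sets. The 3 comparisons share arrays, so their values for a gene are not independent of each other. Some signs of RNA quality, not all, differed with blebbistatin as well. The GAPDH 3' minus 5' probe difference was 0.19 to 0.23 on the 3 blebbistatin arrays, 0.06 to 0.17 on the pulsed arrays and 0.06 to 0.17 on the nonpulsed arrays. The actin difference was 0.69 to 0.77 with blebbistatin, 0.60 to 0.72 in pulsed and 0.45 to 0.68 in nonpulsed cultures. The hexokinase difference overlapped between all groups. It was 0.81 to 1.03 with blebbistatin, 0.80 to 1.04 in pulsed and 0.85 to 0.91 in nonpulsed cultures. Their part in the peptide values was not tested.

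The balance of the peptides was also taken within each array, as Nppb minus Nppa on the log2 scale, and only its differences between arrays are read. Nppa lay near the upper end of the scale, and whether compression there alters these differences was not tested. With blebbistatin against pulsed cultures this balance differed by -0.16 to -0.06 in the 3 series, with a mean of -0.11. Between pulsed and nonpulsed cultures it differed by 0.11 to 0.35, with a mean of 0.24. The sign was the same in 3 of 3 series in both of these comparisons. An exact two-sided permutation test within series gave p = 0.25 in both, which is the smallest p that 3 series allow. For blebbistatin against nonpulsed cultures the balance differed by 0.29 in series 2 and by -0.0011 in series 3, so 1 of 2 was above 0 (exact permutation p = 1).

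**Figure D2:**
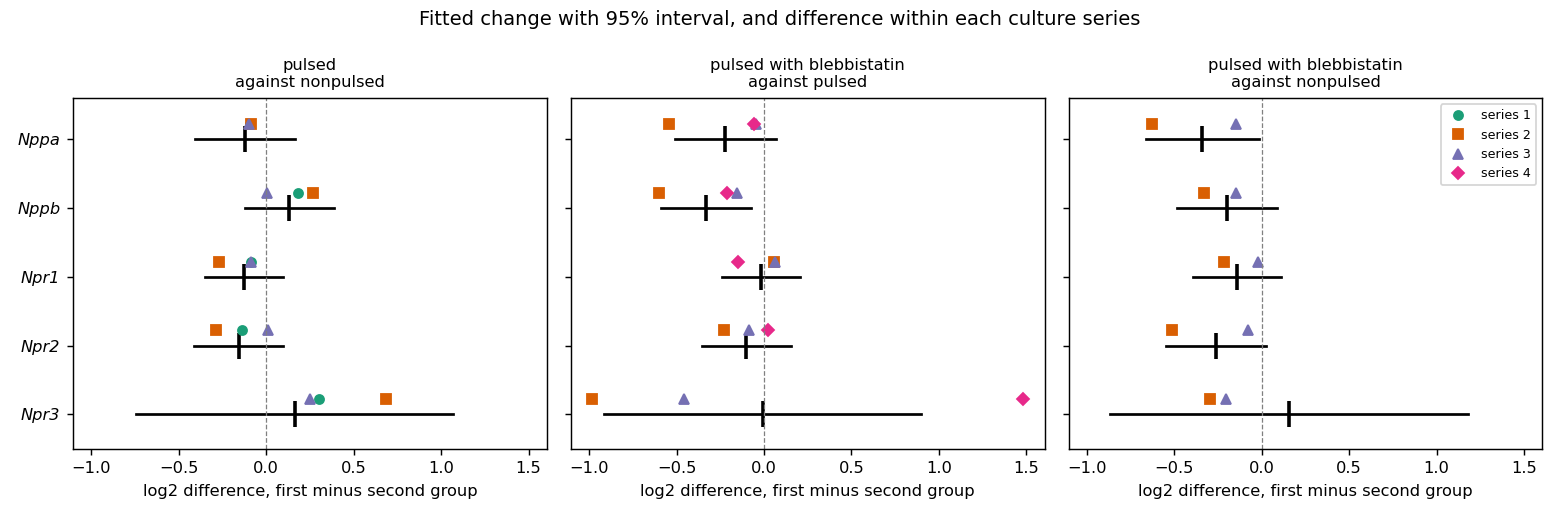
Fitted log2 difference of each member with its 95% interval (black) and the difference within each culture series (coloured markers) for the 3 comparisons, each as the first condition minus the second. The intervals of Npr3 are several times as wide as those of the other members, and the series 2 markers lie lowest for Nppa and Nppb in both comparisons with blebbistatin.

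The receptors Npr1 and Npr2 did not change with treatment by the test either. They differed between culture series. Npr2 had log2 values of 7.98, 8.23 and 9.19 with blebbistatin (series 2, 3 and 4), 9.17, 8.21, 8.32 and 9.17 in pulsed cultures (series 1 to 4), and 9.31, 8.49 and 8.31 in nonpulsed cultures (series 1 to 3). Every array of series 1 and 4 was above every array of series 2 and 3. Npr1 had 5.65, 5.74 and 6.36 with blebbistatin, 6.40, 5.59, 5.68 and 6.51 in pulsed cultures, and 6.49, 5.86 and 5.76 in nonpulsed cultures. It split the arrays in the same way, with low values that lay 2.21 to 3.11 above the lowest of their array.

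The fitted treatment differences of both receptors were small beside these gaps. For pulsed minus nonpulsed cultures the difference was -0.13 for Npr1 (SE 0.10, 95% interval -0.35 to 0.10) and -0.16 for Npr2 (SE 0.11, interval -0.41 to 0.10). For pulsed cultures with blebbistatin minus pulsed cultures it was -0.02 for Npr1 (interval -0.24 to 0.21) and -0.10 for Npr2 (interval -0.36 to 0.15). For blebbistatin minus nonpulsed cultures it was -0.14 for Npr1 and -0.26 for Npr2. The adjusted p-values of these 6 differences lay between 0.257, for Npr2 with blebbistatin against nonpulsed cultures, and 0.963, for Npr1 with blebbistatin against pulsed cultures (limma).

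The difference between culture series was tested over all 10 arrays with treatment held fixed. Npr2 passed the test with F = 38.2 and adjusted p = 0.00814, and Npr1 with F = 29.0 and adjusted p = 0.0116 (limma's moderated F test). Of the 5 members 2 passed, and 8.09% of all probe sets did. Relative to the mean of the 4 series, the fitted effects of series 1, 2, 3 and 4 were 0.44, -0.51, -0.45 and 0.52 for Npr2. For Npr1 they were 0.34, -0.38, -0.35 and 0.40. The level of Npr2 was 2.04-fold lower in series 2 than in series 4 (-1.03, SE 0.13), and that of Npr1 1.71-fold lower (-0.78, SE 0.11). Series 2 minus series 3 came to -0.06 for Npr2 and -0.03 for Npr1, and series 1 minus series 4 to -0.08 for Npr2 and -0.06 for Npr1, each less than its SE. The split into series 1 and 4 against 2 and 3 was noted after the values were seen, and 9.09% of all probe sets share it in this direction. Both calls need series 2 and 3, since the adjusted p without series 2 was 0.120 for Npr1 and 0.0873 for Npr2, and without series 3 it was 0.0789 and 0.0539. For Npr1 it was also 0.0574 without the pulsed array of series 2.

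**Figure D3:**
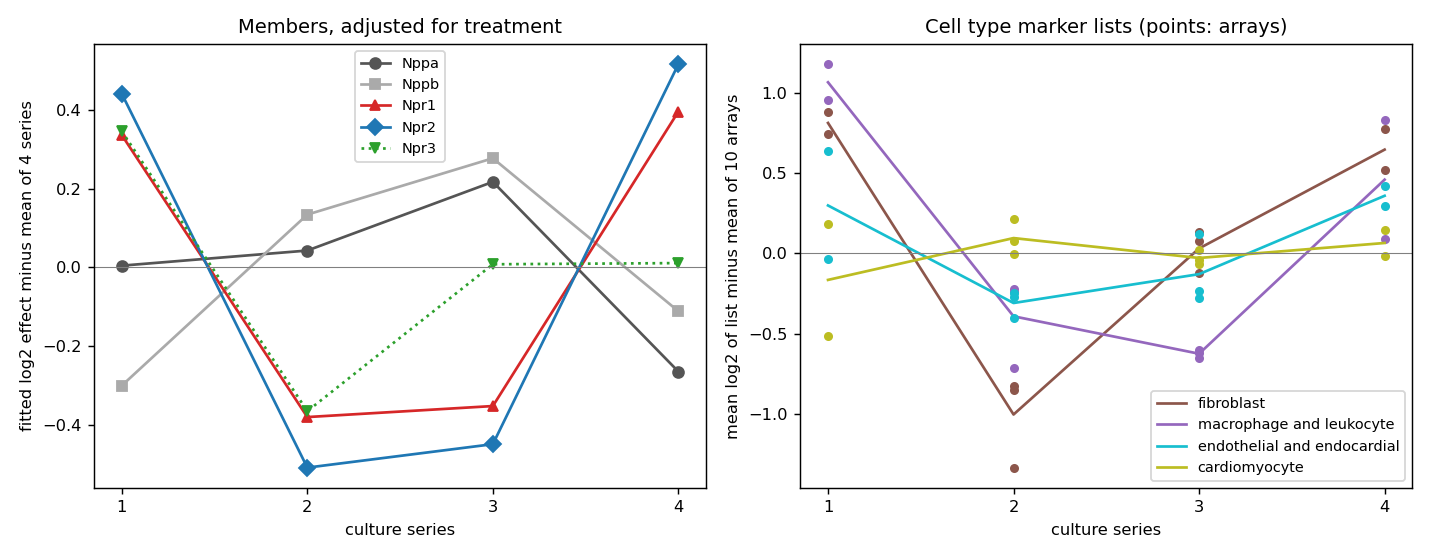
Left, fitted effect of each culture series on each member as log2 difference to the mean of the 4 series. Right, mean log2 value of the fibroblast, macrophage, endothelial and cardiomyocyte marker lists on each array, less that list's mean over the 10 arrays. Npr1 and Npr2 were above their mean in series 1 and 4 and below it in series 2 and 3, and so were the macrophage and endothelial lists by the mean of each series, while the fibroblast list was near its mean in series 3.

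Marker genes of other heart cells moved with the culture series as well. Fibroblast markers had a mean log2 value of 12.09 to 12.24 on the arrays of series 1, 10.02 to 10.53 in series 2, 11.23 to 11.48 in series 3 and 11.87 to 12.13 in series 4. Of 9 fibroblast markers, 7 differed between series by the same test. Macrophage markers had means of 7.46 to 7.68 in series 1, 5.78 to 6.28 in series 2, 5.85 to 5.90 in series 3 and 6.59 to 7.33 in series 4, and 5 of 6 passed. Endothelial markers had means of 5.87 to 6.54, 5.50 to 5.66, 5.63 to 6.03 and 6.20 to 6.33 in the series in order, with 3 of 4 passing. Of the 9 cardiomyocyte markers 0 passed, with list means of 12.38 to 13.11 over all 10 arrays. In the remaining lists 1 of 7 smooth muscle and pericyte markers passed (Pdgfrb), as did 3 of 3 mesothelial, 0 of 3 erythroid and 0 of 1 Schwann cell markers. At the lowest value of its array were Vwf, an endothelial gene, on 4 arrays, Sox10, of Schwann cells, on 2, and C1qa, of macrophages, on 1. The part of these cells in the levels of Npr1 and Npr2 was not tested. Between treatments, 8 of 9 fibroblast markers had a lower fitted value with blebbistatin than in pulsed cultures (median -0.28). So did 7 of 7 smooth muscle and pericyte (median -0.73), 6 of 6 macrophage (-0.30) and 4 of 4 endothelial markers (-0.21). Not every list shared this direction. Higher fitted values were found for 3 of 3 mesothelial (median 0.22), 5 of 6 atrial (0.24) and 5 of 9 cardiomyocyte markers (0.0027). The 1 Schwann cell marker was at 0.19, and the erythroid median was -0.01, with 2 of 3 lower. The median of all probe sets was 0.02, and 0 of these markers passed the test.

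The peptides stood apart less clearly by series. Nppb had fitted series effects of -0.30, 0.13, 0.28 and -0.11 for series 1 to 4 (F = 8.04, unadjusted p = 0.00997, adjusted p = 0.0773). Nppa had 0.00, 0.04, 0.22 and -0.26 (F = 3.68, adjusted p = 0.205). Among atrial markers, which Nppa also is in the adult heart, 3 of 6 differed between series, Myl7, Myl4 and Sln. The atrial list, computed without Nppa, had means of 9.12 to 9.27 in series 1, 9.11 to 9.36 in series 2, 9.79 to 10.08 in series 3 and 8.76 to 9.32 in series 4. Nppa was likewise highest in series 3 and lowest in series 4 by its fitted effects. In series 4 the atrial list mean was 8.76 on the pulsed array and 9.32 on the blebbistatin array. By treatment, 5 of 6 atrial markers had higher fitted values with blebbistatin and 1 lower, in both comparisons, and 0 passed the test. Their median was 0.24 against pulsed and 0.29 against nonpulsed cultures, where Nppa differed by -0.22 and -0.34. The part of atrial cells was not tested.

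Npr3, the clearance receptor, had the lowest mean of the members (5.295, where the filter removed means below 5.09) and the widest spread. Its values lay only 1.15 to 2.68 above the lowest of their array, so its differences are those of a weak signal. It had log2 values of 4.53, 5.11 and 6.13 with blebbistatin, 5.80, 5.51, 5.57 and 4.65 in pulsed cultures, and 5.50, 4.83 and 5.32 in nonpulsed cultures. In series 4 its blebbistatin array was the highest of all 10 and its pulsed array the second lowest. The differences of blebbistatin minus pulsed cultures were therefore -0.98, -0.45 and 1.48 in series 2, 3 and 4. The fitted difference was -0.01 with a 95% interval of -0.92 to 0.90, and for pulsed minus nonpulsed cultures it was 0.16 with an interval of -0.74 to 1.07. The intervals leave room for changes of this gene up to those bounds. They do not give the smallest change that the test could have called. Its residual SD was 0.65, against 0.08 to 0.16 for the other members and a median of 0.16 over all probe sets. Between series it gave F = 0.834 and adjusted p = 0.645, and adjusted p = 0.0321 without the pulsed array of series 4.

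For all 5 members the fitted range over culture series was wider than that over treatments. On the log2 scale the ranges over series and over treatments were 0.48 and 0.34 for Nppa, 0.58 and 0.33 for Nppb, 0.78 and 0.14 for Npr1, 1.03 and 0.26 for Npr2, and 0.71 and 0.16 for Npr3. There are 4 series and 3 treatments, so the first range is taken over more values. How many of all probe sets share this order was not counted, so it is not read as a trait of these genes.

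Genes of cyclic GMP signalling, the path below Npr1 and Npr2, were listed with 21 genes. Of these, 20 had a probe set and 15 passed the filter on low values. None passed the test in any of the 3 comparisons. Their median fitted difference was -0.30 for blebbistatin against pulsed cultures, where the median of all probe sets was 0.02, and 12 of 15 were below 0. It was -0.41 for blebbistatin against nonpulsed cultures (median of all probe sets 0.07) and -0.02 for pulsed against nonpulsed cultures (0.04). With blebbistatin against pulsed and against nonpulsed cultures, smooth muscle and pericyte markers had medians of -0.73 and -0.99. Fibroblast markers had -0.28 and -0.25, macrophage markers -0.30 and -0.44, and endothelial markers -0.21 and 0.03. Atrial markers had 0.24 and 0.29, mesothelial markers 0.22 and 0.19, and cardiomyocyte markers 0.0027 and 0.13. The part of these cells in the values of the cyclic GMP list was not tested. Rgs4, a regulator of G protein signalling, differed by -0.97 with blebbistatin against pulsed cultures (SE 0.21, adjusted p = 0.229), with -1.60, -1.04 and -0.41 in series 2, 3 and 4. Rgs2, a target of protein kinase G, differed by -0.58 (SE 0.36, adjusted p = 0.582), with 0.12, -0.28 and -1.90 in these series, so that series 4 carried most of it. In the same comparison the phosphodiesterase Pde1a differed by -0.55 (SE 0.17, adjusted p = 0.324). In the opposite direction Abcc4, a transporter that exports cyclic nucleotides, differed by 0.52 (SE 0.14, adjusted p = 0.290). Against nonpulsed cultures Rgs2 had the largest difference of the list, -0.90 (SE 0.41, adjusted p = 0.247 by limma), with -0.12 and -0.70 in series 2 and 3. In that comparison Abcc4 differed by 0.84 (adjusted p = 0.0642). Gucy1b1, a subunit of the nitric oxide receptor that also makes cyclic GMP, differed by -0.64 (adjusted p = 0.151). Between culture series 3 of the 15 genes passed the test, Pde1a, Pde3b and Gucy1a1, against 8.09% of all probe sets.

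**Figure D4:**
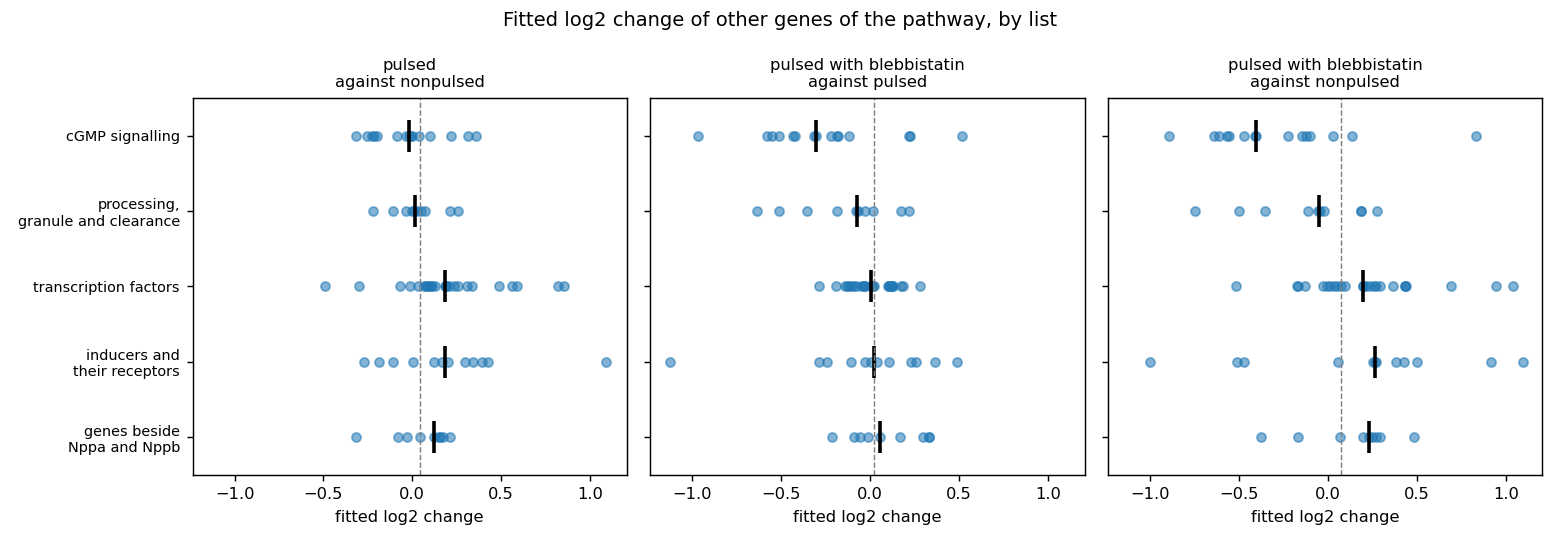
Fitted log2 difference of each tested gene of the 5 lists around the natriuretic peptides (points), with the list median (bar) and the median of all probe sets (dashed line), for the 3 comparisons as first condition minus second. Of the 15 cyclic GMP genes, 12 lie below 0 in each comparison with blebbistatin, where Abcc4 lies at 0.52 and 0.84, and 0 genes of any list passed the test.

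Genes that process, store or clear the peptides showed no change by the test. Of 16 listed, 14 had a probe set and 10 were tested. Their medians were 0.02 for pulsed against nonpulsed, -0.07 for blebbistatin against pulsed and -0.05 for blebbistatin against nonpulsed cultures. Furin, the protease that cuts the Nppb precursor, differed by 0.21 with pulsing (SE 0.12, adjusted p = 0.635) and by -0.03 with blebbistatin against pulsed cultures. Pcsk6, a related protease, differed by 0.26 with pulsing, and Galnt1, which attaches sugars to proteins, by -0.22. Mme, which encodes neprilysin and degrades natriuretic peptides, differed by -0.51 with blebbistatin against pulsed cultures (SE 0.30, adjusted p = 0.543), with -1.32, -0.53 and 0.45 in series 2, 3 and 4. The granule proteins Scg2 and Scg5 differed by -0.64 and -0.35 in that comparison. Between series, Pcsk5 alone of the 10 passed the test, which 8.09% of all probe sets did. Its means were 6.51, 5.50, 5.61 and 6.67 in series 1 to 4, so series 1 and 4 were above series 2 and 3 as in Npr1 and Npr2. That order of means is not particular to Pcsk5. Every other gene of the lists around the peptides that passed between series had it, except Mef2c.

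Cardiac transcription factors, among them regulators of Nppa and Nppb, mostly had higher fitted values in pulsed than in nonpulsed cultures, with 0 of 25 passing the test. The fitted difference was above 0 in 21 of 25, with a median of 0.19 against 0.04 over all probe sets. The list median was 0.32, 0.21 and 0.05 within series 1, 2 and 3. Irx4, a ventricle-enriched factor, differed by 0.85 with pulsing (SE 0.32, adjusted p = 0.513), with 1.98, 0.71 and 0.19 within the series. Tbx3 differed by 0.82, with 2.47, 0.25 and -0.03 within the series, so that the value came from series 1. Tbx5 differed by 0.59, with 1.22, 0.46 and 0.22. The median of the cardiomyocyte markers ran 0.75, 0.21 and 0.02 within the same series, and all 9 were above 0 in the fit, with 0 passing. For these values the part of cardiomyocyte share was not tested. With blebbistatin against pulsed cultures the median of the factors was 0.005, with Mef2d at 0.28, Myocd at -0.29 and Srf at -0.19. Mef2c and Zfpm2 differed between series, 2 of the 25 tested, near the 8.09% of all probe sets that did.

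Hormones that induce the peptides, and their receptors, held the largest fitted difference of the 5 lists in each comparison. Of 19 listed genes, 16 had a probe set and 12 were tested, and 0 passed in any comparison. Edn1, which encodes endothelin-1, a peptide that raises Nppa and Nppb in cultured cardiomyocytes, differed by -1.13 with blebbistatin against pulsed cultures (SE 0.22, adjusted p = 0.185). It was lower in each of series 2, 3 and 4, by -1.83, -1.05 and -0.65. Against nonpulsed cultures Edn1 differed by -1.0 (adjusted p = 0.0964), and between pulsed and nonpulsed cultures by 0.12 (SE 0.22). Adra1b, an alpha-1 adrenergic receptor, differed by 1.09 with pulsing (SE 0.30, adjusted p = 0.481), with 2.08, 1.04 and 0.35 in series 1 to 3, and by 0.005 between blebbistatin and pulsed cultures. Ace, the angiotensin-converting enzyme, differed by 0.43 with pulsing, by 0.49 with blebbistatin against pulsed cultures and by 0.92 with blebbistatin against nonpulsed cultures (adjusted p = 0.101). Agtr1a, the angiotensin II receptor, differed by 0.39 with pulsing, and Nrg1, a growth factor made by endothelium, by 0.36 with blebbistatin against pulsed cultures. Edn1, Agtr1a, Ace and Igf1 differed between series, 4 of the 12 tested, against 8.09% of all probe sets.

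The genes beside the Nppb and Nppa locus were set next to the peptides, and 0 of the 9 tested of 10 listed passed in any comparison. Their medians were 0.12 for pulsed against nonpulsed, 0.05 for blebbistatin against pulsed and 0.23 for blebbistatin against nonpulsed cultures. Mfn2, which encodes a mitochondrial fusion protein, differed by 0.33 with blebbistatin against pulsed cultures (SE 0.13, adjusted p = 0.388) and by 0.48 against nonpulsed cultures. Agtrap, a protein that binds the angiotensin receptor, and Mad2l2 differed by 0.33 and 0.30 with blebbistatin against pulsed cultures. Clcn6, a chloride transporter gene next to Nppa, differed by -0.01 (SE 0.11) in that comparison and by 0.21 with pulsing. Draxin and Miip differed by -0.32 and 0.17 with pulsing, and Fbxo6 by 0.29 with blebbistatin against nonpulsed cultures. Agtrap and Plod1 differed between culture series, 2 of the 9 tested, against 8.09% of all probe sets.

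Likeness of pattern is given as Pearson's r over the 10 arrays, which share series and treatments, and only as a description. Among 11846 genes, those closest to Npr1 were Eng (r = 0.99), Npr2 (0.98) and Bgn (0.98), and those closest to Npr2 were Tie1, Npr1 and Pofut2 (0.98 each). Because the values of Npr1 and Npr2 fall into separate sets by series, these r values largely restate the gap between series 1 and 4 and series 2 and 3. Closest to Nppa were Ky (0.98), Tspan2 (0.92) and C1galt1c1 (0.91), and closest to Nppb were Nup88 (0.88), Srprb (0.88) and Mid2 (0.87). Npr3 was closest to Samd14 (0.90), Cd99 (0.89) and Hsbp1 (0.88).

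With each series' mean taken away, the nearest genes were others in nearly every case. They were Bex3, Pdlim7 and Ccdc107 for Nppa (r from 0.97), Nup88, Tspan18 and Epha3 for Nppb (0.98 each), and Snrpe, Cacnb3 and Cd83 for Npr1 (0.95 to 0.97). Npr2 was nearest to Ttll1, Hpca and LOC102550895 (0.98 to 0.99), and Npr3 to Itfg1, Dzip1l and Tmed4 (0.95 to 0.96). Nup88 was the one gene among the nearest 3 to its member by both measures. Between members, the highest r of these deviations over the 10 arrays were 0.73 for Nppa and Nppb, 0.66 for Npr1 and Npr2 and 0.88 for Nppa and Npr2. The other pairs lay between -0.60 (Npr1 and Npr3) and 0.44 (Nppa and Npr1). The arrays of series 2 weigh most in the r of Nppa and Npr2. Within series 2 the values spanned 0.63 for Nppa and 0.51 for Npr2, and in any other series at most 0.15 and 0.14.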

How the data were processed

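Total RNA was labelled with biotin and put on Affymetrix arrays carrying rat probe sets (per the labels' protocols). Each probe set has 1 deposited log2 value on each array. Per the submitters' processing notes, these values came from the PLIER algorithm of Affymetrix Expression Console 1.1. PLIER's settings were not given in these sources, and the base of the logarithm was read from the deposited log2 values themselves. No further scaling was applied.

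Of 31099 probe sets, 57 controls were left out. The platform annotation gave 1 symbol to 20826 of the rest, several to 436 and none to 9780, and genes were named only where there was 1 symbol. The dimmest 25% of probe sets, by their mean over all arrays (below 5.09), were removed, and 23281 remained. Treatment differences come from limma 3.58.1 under R 4.3.3 (two-sided, all 10 arrays, treatment plus culture series as a fixed block), and differences between series with the moderated F test of that fit. Adjustment followed Benjamini and Hochberg across the 23281 probe sets, and a test was passed at an adjusted p under 0.05. The fit was tested on simulated data. A fitted difference draws on all arrays and can differ from those within series.

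Culture series were taken to pair the arrays. Deviations from the group means correlated at 0.35 to 0.63 (median 0.42) in the 8 pairs of one series. In 25 pairs of different series and groups they correlated at -0.58 to 0.50 (median -0.26), so the ranges overlapped. By the design text each treatment had 3 arrays, whereas 4 arrays are labelled as pulsed, and all 4 were used. For arrays, their number limits the precision. The members and gene lists were chosen with earlier results of these data known. From each list the text names the genes that passed the test and the 3 with the largest difference in a comparison, and it names as alike the 3 genes of highest correlation by each measure. Alternatives tried were other blocks, subsets of arrays, scalings, filters, summaries per gene and a trended prior. Promoter sequences are from RefSeq (GRCr8), and motifs were matched exactly. As signs of RNA quality, actin 3' minus 5' probe values were 0.69 to 0.77 with blebbistatin, 0.60 to 0.72 in pulsed and 0.45 to 0.68 in nonpulsed cultures.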

Additional observations from a re-analysis of the deposited data

How the results depend on the processing

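No treatment difference of a member passed the test under any alternative. Of 369 recomputed member differences, 345 kept their sign and 24 reversed. Without the replicate block, Npr1 and Npr2 differed by 0.005 and 0.0135 between pulsed and nonpulsed cultures. With only the series that hold both groups, and with only the arrays of the 2 groups, Npr3 differed by 0.0152 for blebbistatin against pulsed and by -0.25 for blebbistatin against nonpulsed cultures. Leaving out 1 array or series at a time gave ranges of -0.14 to 0.41 for Npr3 (pulsed against nonpulsed), -0.0705 to 0.0453 for Npr1, -0.16 to 0.0015 for Npr2 and -0.69 to 0.44 for Npr3 (blebbistatin against pulsed; 0.0152 without series 1, 0.2191 without series 3, 0.3815 without the blebbistatin array of series 2), and -0.28 to 0.61 for Npr3 (blebbistatin against nonpulsed). These reversals lie within the intervals of the differences, and their cause was not tested.

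Counts of probe sets that passed depended on the setting. For pulsed against nonpulsed cultures it was 0 under all 25. For blebbistatin against pulsed cultures it was 3, and 5 without the replicate block, 14 with a random replicate block, 48 with only the series that hold both groups, 12 with only 2 groups, 0 with no filter, 6 with the lowest 50% left out, 10 with a trended prior and 0 to 48 with arrays left out. For blebbistatin against nonpulsed cultures it was 110, and 46 without the replicate block, 1212 with a random replicate block, 31 with only the series that hold both groups, 2 with only 2 groups, 67 after quantile normalization, 1 with no filter, 70 with the lowest 50% left out, 63 with 1 probe set per gene, 56 with the mean per gene, 216 with a trended prior and 0 to 69 with arrays left out (36 without series 4). Between culture series it was 1884, and 16 to 1854 with arrays left out (243 without series 3, 983 without series 4, 330 without the pulsed array of series 2).

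For the test between culture series, leaving out arrays gave adjusted p-values (limma) of 0.0229 to 0.120 for Npr1 (0.0789 without series 3, 0.0574 without the pulsed array of series 2), 0.0164 to 0.0873 for Npr2 (0.0539 without series 3) and 0.0321 to 0.819 for Npr3, and a trended prior gave 0.0306 for Nppb. With the lowest 50% left out, Npr1 and Npr3 were not tested. Only 3 or 4 arrays per group and 2 or 3 per series limit the precision, and probe sets near the lowest value on an array (3.32 to 3.46) can understate differences.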
